A study of Arabidopsis thaliana with 8 samples.

Results

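The B-box (BBX) proteins are a plant family of zinc-finger regulators that take their name from the B-box, a small zinc-binding fold used for contacts with other proteins. CONSTANS (CO), the founding member, brings flowering forward in long days by activating *FT* in the phloem companion cells of leaves, and it contacts DNA through a second domain, the CCT domain, together with NF-Y subunits. Other BBX proteins act in seedling de-etiolation, largely as partners or antagonists of the light-signalling factor HY5, in shade and temperature responses and in flowering, where several of them bind CO or oppose it. The family is divided by domain make-up. BBX1 to BBX6 and BBX7 to BBX13 carry a pair of B-boxes and a CCT domain, BBX14 to BBX17 carry a single B-box with a CCT domain, BBX18 to BBX25 carry a pair of B-boxes without it, and BBX26 to BBX32 carry a single B-box without it.

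The 32 loci of the family in *Arabidopsis thaliana*, BBX1 (which is *CO*) to BBX32, were examined for chromatin occupied by a tagged CO protein, among 27444 protein-coding genes of the TAIR10.1 RefSeq annotation. A peak was assigned to a member when it overlapped the annotated gene or the 3000 bp upstream of its start, and this window was used for every gene. The peaks came from chromatin immunoprecipitation followed by sequencing (ChIP-seq) of CO fused to the fluorescent protein CITRINE (CO:CIT), recovered with nanobodies from 5 g (fresh weight) of whole seedlings per library. Seedlings of the Columbia background were grown in long days of 16 h light and 8 h dark and harvested 12 h after dawn. Both genotypes carried the transgene, expressed from the companion cell promoter of *SUC2* in one transgenic line (#5), either with the wild-type *ABA1* allele (*SUC2::CO:CIT*) or with the *aba1-6* allele, which impairs synthesis of the hormone abscisic acid (*SUC2::CO:CIT aba1-6*). There were 2 ChIP libraries of each genotype, each with its own input, which makes 8 samples. No library of plants without the transgene was among them, so the level of peaks in the absence of CO:CIT was not analysed here.

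The peak lists of the genotypes differed greatly in size and depth. *SUC2::CO:CIT* replicates 1 and 2 held 21054 and 22724 peaks, and *SUC2::CO:CIT aba1-6* replicates 1 and 2 held 168 and 258. The background over the genome, recovered from the deposited values, amounted to 11.2 and 10.8 fragments for *SUC2::CO:CIT* but to 3.57 and 0.774 for *SUC2::CO:CIT aba1-6*, so that the weakest peak called rested on 23, 22, 11 and 5 fragments. Of all peaks in *SUC2::CO:CIT*, 80.1% in replicate 1 and 74.2% in replicate 2 overlapped one of the other replicate. Below, a shared peak is a pair of *SUC2::CO:CIT* peaks, one of each replicate, that overlap by at least 1 bp within the window of a gene.

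To show what the sequence under these peaks looked like, the 101 bp centred on the replicate 1 summit are printed for the strongest shared peaks in the family, leaving out those in untranslated regions. All are given 5′ to 3′ on the plus strand of TAIR10.1, and capitals mark the word TGTG or its reverse complement CACA, the core of the elements that CO recognises at *FT*. The first set holds the strongest shared peak of *BBX24* (chr1:1832799-1832899), *BBX5* (chr5:8586907-8587007), *BBX26* (chr1:22218124-22218224), *BBX16* (chr1:27778862-27778962) and *BBX21* (chr1:28362663-28362763), none of which contains the word, so none carries capitals.
BBX24: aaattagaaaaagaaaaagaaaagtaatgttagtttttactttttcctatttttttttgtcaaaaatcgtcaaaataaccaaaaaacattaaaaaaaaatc
BBX5: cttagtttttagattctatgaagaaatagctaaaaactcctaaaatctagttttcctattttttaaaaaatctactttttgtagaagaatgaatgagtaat
BBX26: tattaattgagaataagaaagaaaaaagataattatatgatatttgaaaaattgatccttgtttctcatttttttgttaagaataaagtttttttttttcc
BBX16: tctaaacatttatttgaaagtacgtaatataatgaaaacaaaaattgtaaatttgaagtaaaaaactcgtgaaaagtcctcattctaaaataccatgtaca
BBX21: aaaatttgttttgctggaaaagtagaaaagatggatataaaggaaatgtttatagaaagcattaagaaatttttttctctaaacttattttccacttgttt
These sequences have between 17.8% and 23.8% G and C, against 36.0% over the genome, and unbroken runs of A and T of up to 15 bp.

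The second set was chosen after the values had been seen, because these summits do contain the word or lie in *CO* itself. It holds the second shared peak of *BBX5* (chr5:8587701-8587801), the start-proximal shared peak of *BBX15* (chr1:8935654-8935754) and 29 bp of the *BBX31* 3′ untranslated region (chr3:7709170-7709198), in which the capitals mark a match to the longer element TGTGNNATG on the minus strand. The last sequence is from the *CO* coding region (chr5:5172234-5172334), at the summit of a peak of *SUC2::CO:CIT aba1-6* replicate 1.
BBX5 second peak: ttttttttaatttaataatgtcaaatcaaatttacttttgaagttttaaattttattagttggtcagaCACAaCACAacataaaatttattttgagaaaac
BBX15 start-proximal peak: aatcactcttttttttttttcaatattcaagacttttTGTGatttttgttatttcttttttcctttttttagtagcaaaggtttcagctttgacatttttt
BBX31: ttttttttttCATTACACAtttcttaaaa
CO coding region: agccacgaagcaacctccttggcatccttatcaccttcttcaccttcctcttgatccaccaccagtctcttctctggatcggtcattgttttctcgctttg
The *CO* sequence has 49.5% G and C and no A/T run over 4 bp, and it contains neither orientation of the word.

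To ask which BBX genes lay beside chromatin occupied by CO:CIT, the members were first counted in *SUC2::CO:CIT*. Shared peaks were present at 14 of the 32 members, which were *BBX5*, *BBX6*, *BBX14*, *BBX15*, *BBX16*, *BBX18*, *BBX21*, *BBX22*, *BBX24*, *BBX26*, *BBX28*, *BBX29*, *BBX31* and *BBX32*. This is 43.8% of the family, beside 47.5% of all protein-coding genes, so that the family as a whole was close to the background. A further 7 members had a peak within the window in one replicate only, *BBX30* had a peak in each replicate that did not overlap, and 10 members had none. The shares of all genes in these classes were not counted. Replicate 1 had a peak at 18 members, beside 55.4% of all genes, and replicate 2 at 19 members, beside 58.5% of all genes. In all there were 26 peaks at the members in replicate 1 and 27 in replicate 2, of which 19 in each formed shared pairs (73.1% and 70.4%), and no peak lay in the windows of 2 members.

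The structural groups differed in their counts. None of the 7 members of BBX7 to BBX13 had a shared peak, compared with 2 of 6 in BBX1 to BBX6, 3 of 4 in BBX14 to BBX17, 4 of 8 in BBX18 to BBX25 and 5 of 7 in BBX26 to BBX32. Every member of BBX14 to BBX17 and of BBX26 to BBX32 had a peak in at least one *SUC2::CO:CIT* replicate, whereas 4 of 6 in BBX1 to BBX6 and 4 of 7 in BBX7 to BBX13 had none. Replicates 1 and 2 had a peak at 55.4% and 58.5% of all genes, but the share with a peak in either was not counted. With 4 to 8 genes in a group the group counts are descriptions, and no difference between groups was tested.

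**Figure D1:**
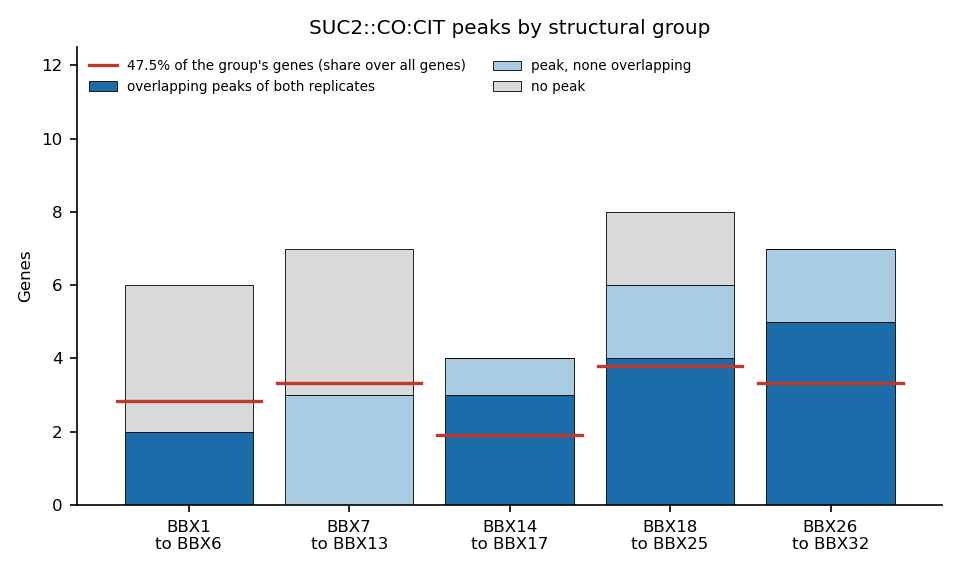
Number of BBX genes in each structural group with overlapping peaks of both *SUC2::CO:CIT* replicates (dark), with a peak but no overlap between replicates (pale) or with no peak (grey), and the number that a share of 47.5%, that of all genes, would give (red line). BBX7 to BBX13 has no gene in the dark class, and BBX26 to BBX32 has 5 of 7.

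*CO* itself (BBX1, AT5G15840, chr5:5170162-5173085, minus strand) had no peak in either *SUC2::CO:CIT* library, in the gene or upstream of it. The neighbouring *COL1* (BBX2, AT5G15850), *COL2* (BBX3, AT3G02380) and *COL3* (BBX4, AT2G24790) had none either. *COL3* is known as a positive regulator of de-etiolation that binds the ubiquitin ligase COP1. The other 2 members of the group, *COL4* and *COL5*, had shared peaks. The *SUC2::CO:CIT* plants carry the transgene with its *CO* coding sequence. Their lists hold no value where no peak was called, so the local background at *CO* is not known.

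The *COL4* gene (BBX5, AT5G24930, chr5:8589457-8590949, plus strand), whose product is known as a repressor of flowering, had 2 shared peaks far upstream. At the distal one the fold enrichment was 3.69 in replicate 1 and 4.65 in replicate 2, that is 44 and 54 fragments over a background at the genome level, with −log10 q of 11.3 and 17.7. The summits lay 2500 and 2721 bp upstream of the start, and in both replicates the start of the neighbouring gene *GDU5* was closer, at 2422 and 2201 bp. At the second peak the fold enrichment was 3.69 and 3.72, with summits 1706 and 1779 bp upstream and −log10 q of 11.3 and 11.1. The distal value of replicate 2 was the highest fold enrichment of any shared peak in the family. The *COL5* gene (BBX6, AT5G57660, chr5:23355337-23356989, plus strand), which brings flowering forward in short days when overexpressed, had a shared peak with fold enrichment of 2.87 and 3.21 and summits 500 and 562 bp upstream. Replicate 2 also had a peak of 3.04 at 1604 bp upstream of *COL5*, with no counterpart in replicate 1.

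Genes of the second group were bare of shared peaks. *BBX7* (COL9, AT3G07650), which delays flowering and lowers *CO* and *FT* expression, *BBX9* (AT4G15250), *BBX11* (AT2G47890) and *BBX13* (AT1G28050) had no peak in *SUC2::CO:CIT*. *BBX8* (AT5G48250), known to act with *BBX7* in cold acclimation, had a peak in replicate 2 only, with a fold enrichment of 3.38 at 544 bp upstream. *BBX10* (COL12, AT3G21880), a repressor of flowering that is degraded through COP1 and SPA proteins, had a peak of 3.30 in replicate 2 only, at 2471 bp upstream and 282 bp from the start of *PEX22*. *BBX12* (AT2G33500) had a peak of 2.79 in replicate 1 only, at 1081 bp upstream.

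In BBX14 to BBX17, the shared peak closest to a gene start was that of *BBX16* (COL7, AT1G73870, chr1:27778984-27780809, plus strand). BBX16 acts downstream of the chloroplast regulator GLK1 in de-etiolation. The summits lay 72 and 89 bp upstream of the start, with fold enrichment of 3.37 and 4.31 (40 and 50 fragments) and −log10 q of 9.16 and 15.2. *BBX14* (COL6, AT1G68520) had its shared peak in the 3′ untranslated region, with fold enrichment of 3.20 and 2.87, and a weaker peak of 2.45 at 518 bp upstream in replicate 2 only. *BBX15* (COL16, AT1G25440) had 2 shared peaks, of 2.38 and 2.54 at 160 and 372 bp upstream and of 2.38 and 2.93 at 2944 and 2964 bp upstream, the latter within the neighbouring gene *KCS5*. *BBX17* (COL8, AT1G49130), which interacts with CO and delays flowering, had a peak of 2.55 in replicate 1 only, at 2940 bp upstream, within AT1G49160 and 65 bp from the start of AT1G49140.

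BBX18 to BBX25 holds partners and antagonists of HY5, and the fold enrichment of its shared peaks ranged from 2.28 to 4.43. The strongest shared peak among all members lay upstream of *BBX24* (*STO*, AT1G06040, chr1:1828340-1829983, minus strand), a negative regulator of de-etiolation also known for salt tolerance. Its fold enrichment was 4.43 in replicate 1 and 4.06 in replicate 2 (53 and 47 fragments), with −log10 q of 16.6 and 13.4. The summits were 2866 and 2670 bp upstream of *BBX24*, but only 92 bp from the start of AT1G06060 in replicate 1 and 98 bp from that of AT1G06050 in replicate 2, so the peak lies closer to these neighbours than to *BBX24*. *BBX21* (AT1G75540, chr1:28365824-28367738, plus strand), which promotes de-etiolation with HY5, had shared peaks of 3.15 and 2.96 about its start, 10 bp inside the gene in replicate 1 and 343 bp upstream in replicate 2, and of 2.96 and 3.72 with summits 3111 and 3186 bp upstream. The distal pair reached into the window by only 87 and 52 bp. Peaks in one replicate at *BBX21* were a 3.20-fold peak at 922 bp upstream in replicate 1 and a 2.28-fold peak in the 3′ untranslated region in replicate 2.

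*BBX22* (*LZF1*, AT1G78600), another HY5 partner, had a shared peak of 3.09 and 2.62 at 110 and 205 bp upstream, within the neighbouring gene AT1G78590. *BBX18* (AT2G21320), a negative regulator of de-etiolation, had a weak one of 2.55 and 2.28 at 234 and 385 bp upstream. *BBX20* (*BZS1*, AT4G39070), a component of brassinosteroid and light signalling, had a peak of 2.71 in replicate 1 only, at 402 bp upstream. *BBX25* (*STH*, AT2G31380), which limits HY5 activity, was counted in replicate 2 only. It was reached by 9 bp of a peak with a fold enrichment of 4.06 and its summit 3257 bp upstream. The overlapping peak of replicate 1, with a fold enrichment of 3.37 and its summit 3291 bp upstream, lay outside the window. *BBX19* (AT4G38960), which binds CO and lowers *FT* expression, and *BBX23* (AT4G10240) had no peak.

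In BBX26 to BBX32 all 7 genes had a peak, and 5 had a shared one. *BBX26* (AT1G60250, chr1:22217077-22217832, minus strand) had the closest agreement in position, with summits 342 and 340 bp upstream, and fold enrichment of 3.78 and 4.31 (45 and 50 fragments) at −log10 q of 11.9 and 15.2. *BBX29* (AT5G54470, chr5:22114304-22115539, minus strand) had 3 shared peaks, more than any other member. These were of 3.69 and 2.96 in the 3′ untranslated region, of 3.12 and 3.04 at 927 and 1089 bp upstream, and of 3.12 and 3.13 at 1626 and 1704 bp upstream, the last closer to the start of AT5G54480. Replicate 1 held a further peak of 2.63 at 2103 bp upstream of *BBX29*. *BBX28* (AT4G27310), which inhibits HY5 and binds CO, had the weakest shared peak of the family, of 2.38 and 2.16 at 42 and 96 bp upstream, and a peak of 3.20 at 1340 bp upstream in replicate 1 only.

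*BBX30* and *BBX31* encode the microproteins miP1b and miP1a, which link CO to the co-repressor TOPLESS and so hold back *FT*. *BBX31* (AT3G21890, chr3:7708833-7709933, minus strand) had a shared peak of 2.71 and 2.87 in its 3′ untranslated region, 730 and 740 bp downstream of the start. *BBX30* (AT4G15248) had a peak of 3.17 at 434 bp upstream in replicate 1 and one of 3.30 at 1368 bp upstream in replicate 2, which did not overlap. *BBX32* (AT3G21150), which binds BBX21 and reduces its activity, had a shared peak of 3.12 and 3.10 at its 3′ end, with summits 115 and 12 bp from the start of the next gene, AT3G21140. *BBX27* (AT1G68190) had a peak of 2.36 in replicate 2 only, at 25 bp upstream.

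**Figure D2:**
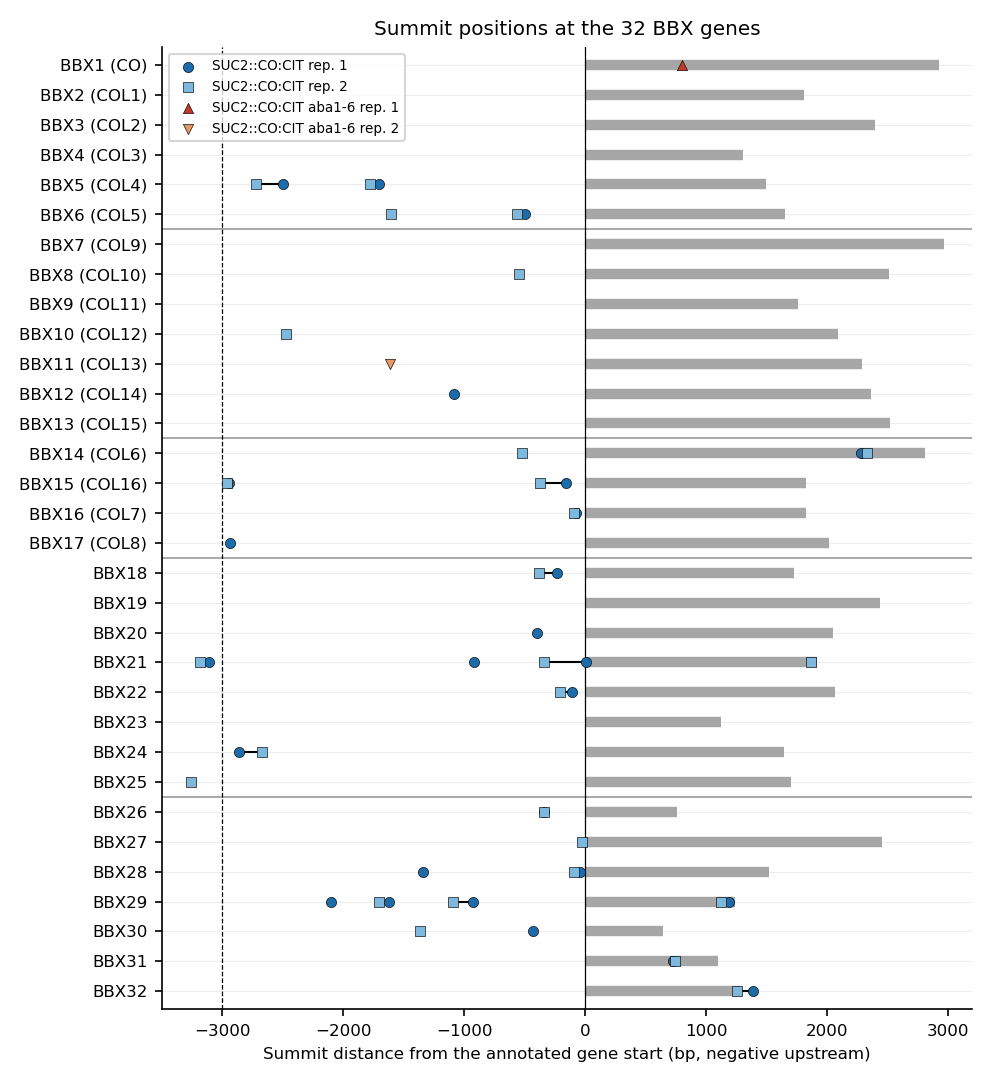
Distance of each peak summit from the annotated start of the BBX gene (bp, negative upstream), with the genes as grey bars, the edge of the 3000 bp window as a dashed line and shared pairs joined by black lines. Upstream summits range from next to the start (*BBX27*, 25 bp) to beyond the window edge (*BBX25*, 3257 bp), and *CO* carries only a peak of *SUC2::CO:CIT aba1-6* replicate 1.

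Most shared pairs lay upstream of the genes, as did most of the searched sequence, 3000 bp of a median window of 4827.5 bp. By the mean position of the summits, 8 of the 19 shared pairs were 1 to 1000 bp upstream, 7 were further upstream and 4 were in the gene or at its 3′ end. The start nearest to the replicate 1 summit was the member's own in 13 of the 19. Neither these positions nor the nearest starts were counted over all shared peaks. With 1000 bp upstream, 12 members retained a shared peak (34.4% of all genes), *BBX5* and *BBX24* being lost, and with the gene alone 5 did (*BBX14*, *BBX16*, *BBX29*, *BBX31* and *BBX32*), beside 11.5% of all genes. With 4000 bp, a window added after the data had been seen, 18 members had one, beside 52.9% of all genes. The members gained, with the fold enrichment of the pair that entered, were *BBX7* (2.68 and 2.79), *BBX9* (2.22 and 2.87), *BBX23* (3.45 and 4.14) and *BBX25* (3.37 and 4.06), with summits from 3257 to 3912 bp upstream. A further pair (2.55 and 2.37) entered at *BBX31*, which already had one, with summits 3755 and 3781 bp upstream.

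Enrichment at the members was modest. The median fold enrichment of the 19 shared pairs was 3.12 in replicate 1 and 3.04 in replicate 2, compared with 3.28 and 3.30 over all shared peaks, and the median −log10 q was 7.66 and 7.02 compared with 8.65 and 8.49. Of the 19 pairs, 5 exceeded the median −log10 q of all shared peaks in both replicates, namely both pairs of *BBX5* and those of *BBX16*, *BBX24* and *BBX26*. The share of all shared pairs above both medians was not counted. Within these pairs, chosen for a called peak in both replicates, the values of the replicates were alike. Peaks of a single replicate are left out, so the likeness is no test of agreement between replicates. The 95% exact Poisson intervals of the fragments, which cover counting error only, overlapped between replicates in all 19 pairs, replicate 1 having the higher fold enrichment in 9 and replicate 2 in 10. For the strongest pair, that of *BBX24*, the intervals were 39.7 to 69.3 and 34.5 to 62.5 fragments in replicates 1 and 2. Summits of a pair were 2 to 353 bp apart, with a median of 75 bp compared with 54 bp over all pairs. In all 19 pairs the background used was within 10% of the genome level.

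**Figure D3:**
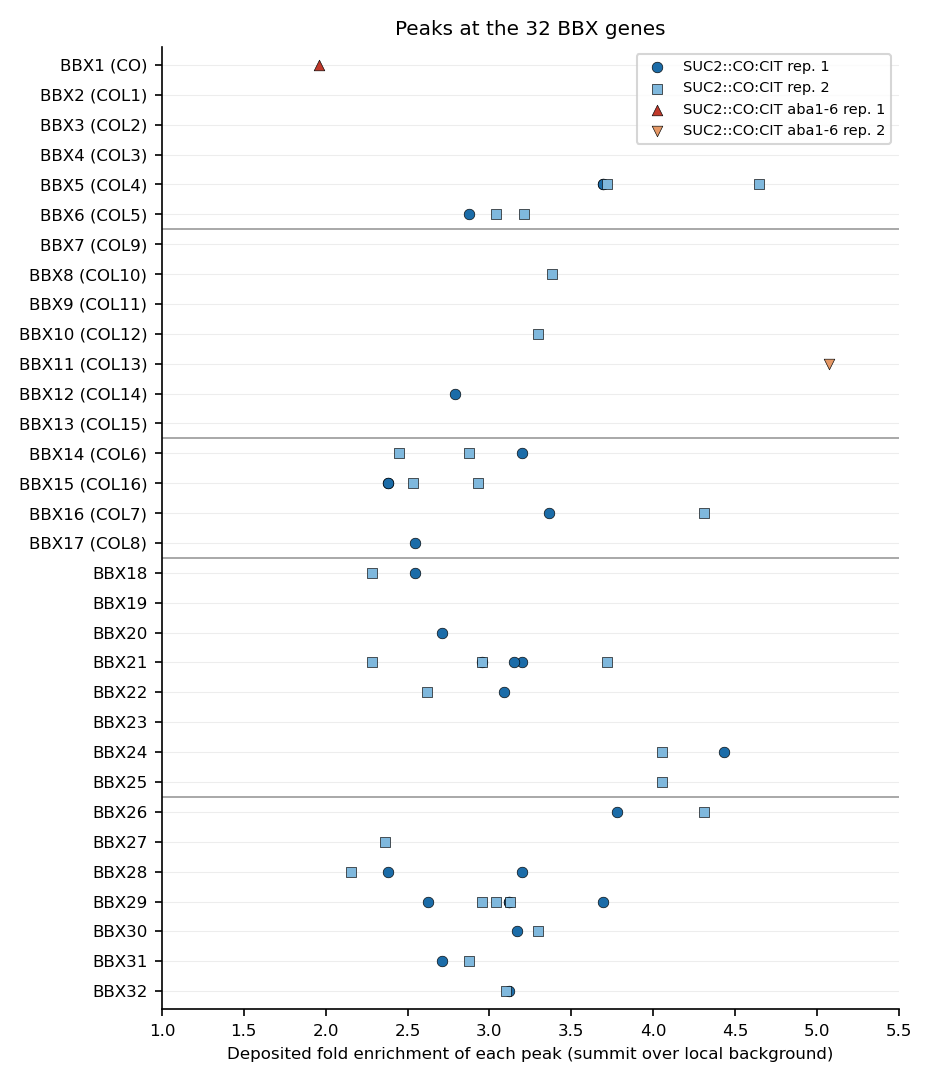
Deposited fold enrichment of every peak at each BBX gene (x axis, summit over local background, not on one scale between libraries of different depth), by library. Shared peaks in *SUC2::CO:CIT* lie between 2.16 (*BBX28*) and 4.65 (*BBX5*), and *SUC2::CO:CIT aba1-6* contributes one peak per replicate, at *CO* (1.96) and *BBX11* (5.07).

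**Figure D4:**
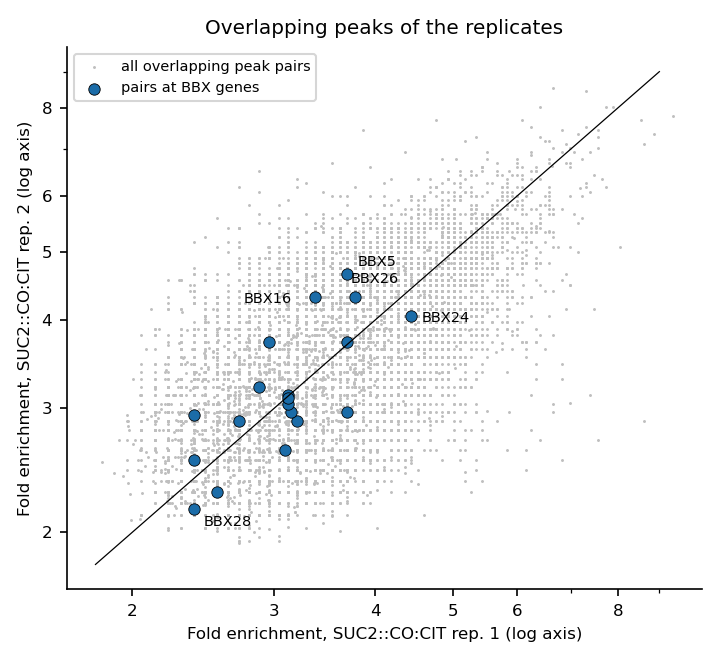
Fold enrichment in *SUC2::CO:CIT* replicate 1 (x axis) and replicate 2 (y axis) of overlapping peaks, both axes logarithmic, for all pairs (grey) and for the 19 pairs at BBX genes (blue), with the line of equality. The BBX pairs lie between 2.16 and 4.65, *BBX24*, *BBX5*, *BBX26* and *BBX16* being among the highest of the BBX pairs. Pairs elsewhere in the genome reach higher values.

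Stricter rules left fewer members. When both peaks of a pair had to reach a −log10 q of 5, 10 members had one, beside 39.6% of all genes, and at a −log10 q of 10 only *BBX5*, *BBX24* and *BBX26* did, beside 16.7% of all genes. At a global irreproducible discovery rate (IDR) of at most 0.1, from a model that asks whether peaks rank alike in both replicates, 7 members remained (*BBX5*, *BBX16*, *BBX21*, *BBX24*, *BBX26*, *BBX29* and *BBX32*), beside 30.3% of all genes.

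To compare the genotypes, the members with a peak were counted in each library. *SUC2::CO:CIT* replicates had a peak at 18 and 19 members, and each *SUC2::CO:CIT aba1-6* replicate had a peak at 1 member, so the libraries of the genotypes did not overlap. The means were 18.5 ± 0.707 and 1 ± 0 (SD, n = 2), a difference of 17.5 members, with p = 0.333 in a two-sided exact permutation test, the smallest p that 2 against 2 libraries allow. The peaks at the members numbered 26 and 27 against 1 and 1, a difference of 25.5 (p = 0.333 in the same exact permutation test). Over all genes, 0.765% and 1.24% had a peak in *SUC2::CO:CIT aba1-6* replicates 1 and 2.

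None of the 14 members with a shared peak in *SUC2::CO:CIT* had a peak in *SUC2::CO:CIT aba1-6*. With a peak at only 0.765% and 1.24% of all genes in replicates 1 and 2, this absence is not particular to the family. The depth of the *SUC2::CO:CIT aba1-6* libraries bears on it directly. Scaled by the background of each library, the strongest shared peak of each of the 14 members would hold 8.75 to 16.2 fragments in the first *SUC2::CO:CIT aba1-6* replicate, whose weakest peak held 11, and 9 of the 14 reach that number. In the second they would hold 1.90 to 3.51 fragments, against 5 in its weakest peak, and none reaches it. Less CO:CIT on chromatin, fewer companion cells and lower depth cannot be told apart in these counts.

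The peak of *SUC2::CO:CIT aba1-6* replicate 1 at *CO* had its summit in coding sequence over a raised background, unlike any shared peak of the family. It spanned chr5:5172008-5172595, 588 bp that lie wholly within a coding exon (chr5:5171936-5172697), and its summit was 801 bp downstream of the start. The fold enrichment was 1.96, below the median of 3.28 over all peaks of that library, but the −log10 q of 3.23 was above its median of 1.71. The peak rested on 74 fragments over a local background of 37.3, which is 10.4 times the genome level of that library. The transgene carries *CO* coding sequence, so fragments of the transgene and of the native gene cannot be told apart there. The GC content at the summit was 43.5%, above that of every shared peak in the family. It was close to the median of 41% over all peaks of *SUC2::CO:CIT aba1-6* replicate 1, so this GC content is not particular to *CO*. The interval also overlaps AT5G15843, annotated on the opposite strand. The peak at *BBX11* (COL13) in replicate 2, known for a role in de-etiolation, had a fold enrichment of 5.07 but only 8 fragments (95% exact Poisson interval 3.45 to 15.8), with −log10 q of 2.69. It lay 1610 bp upstream, nearer to the start of AT2G47885, over a background at the genome level. Neither gene had a peak in the other *SUC2::CO:CIT aba1-6* replicate.

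The shared peaks at BBX genes lay in AT-rich DNA, as did shared peaks over the whole genome. The GC content of the 200 bp about the summit ranged from 17% to 29% with a median of 22.5% in each replicate, compared with a median of 21% over all shared peaks in each replicate and 36.0% for the genome. In each replicate 15 of the 19 summits were below 25%, beside 85.0% and 84.6% of all shared summits. The windows of the members themselves were of usual composition, with a median GC content of 36.6% compared with 36.7% over all genes and a median length of 4827.5 bp compared with 5078 bp.

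Members with and without peaks differed in how much AT-rich sequence their windows held. The share of 200 bp stretches below 25% GC had a median of 5.65% in the 14 members with a shared peak, 2.38% in the 8 members with a peak but no overlap, and 0% in the 10 members without a peak. Over all genes the median share was 8.79% with a shared peak and 0% without one. *BBX5* had the highest share of all members, 27.9%, followed by *BBX29* with 12.3% and *BBX6* with 8.89%. In the 10 members without a peak the share did not exceed 2.88% (*COL2*) and was 0% in 7, among them *CO*, *COL1* and *COL3*. A share of 0% was also found in *BBX32*, with a shared peak at its 3′ end, and in *BBX17* and *BBX25*, with a peak within the window in one replicate. By structural group, the median share was 1.44% in BBX1 to BBX6, 0.980% in BBX7 to BBX13 and 3.92% in BBX14 to BBX17. In BBX18 to BBX25 it was 2.55%, and in BBX26 to BBX32 it was 5.75%. This is a description across genes and groups, and the part of base composition in the peaks was not tested.

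**Figure D5:**
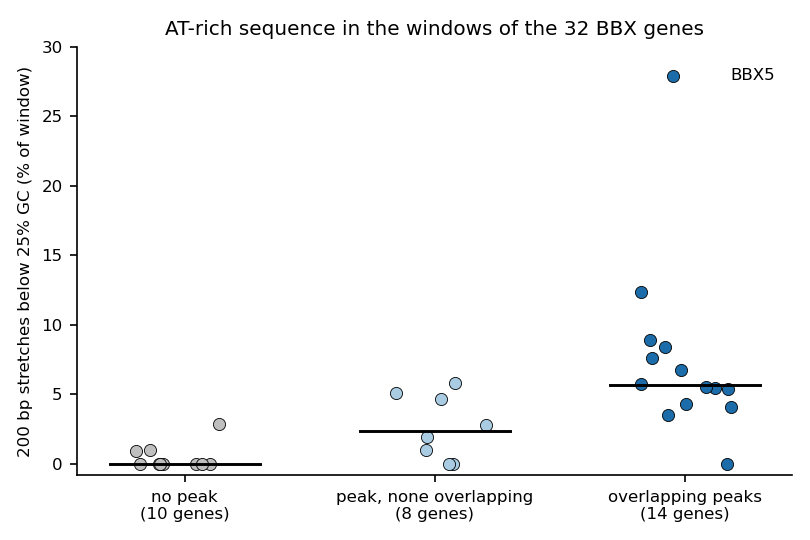
Share of 200 bp stretches below 25% GC in the window of each BBX gene (y axis), for genes with no *SUC2::CO:CIT* peak, with peaks that do not overlap between replicates and with overlapping peaks; each point is a gene, spread sideways for legibility, and bars are medians. The medians are 0%, 2.38% and 5.65%, and *BBX5* is highest at 27.9%.

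The words of known CO-responsive and NF-Y sites were then searched on both strands within 50 bp of the replicate 1 summits. TGTG was present at 5 of the 19 pairs (26.3%), those of *BBX14*, *BBX31*, both of *BBX15* and the second of *BBX5*, beside 34.3% of all shared peaks. CCACA, which contains CACA, was found only at *BBX14* (5.26%, beside 5.30%), and CCAAT, the NF-Y site, at *BBX14* and *BBX28* (10.5%, beside 13.6%). CACGTG, the G-box, was found at no member (0.208% of all shared peaks). The extended element TGTGNNATG was found at *BBX31* alone (5.26%, beside 0.676%), and its variant with 1 more base between TGTG and ATG at none (0.682% of all). The match at *BBX31*, shown above, spans chr3:7709180-7709188, close to the summits of both replicates. TGTG was less frequent under the peaks than over longer sequence. There were 4.50 words per kb in the shared peaks of members and 5.11 in all shared peaks. The windows of all 32 members, with or without a shared peak, had 8.57, and the chromosomes had 7.90. Windows that hold a shared peak were not counted apart. A match is a description of these letters and no evidence of a site.

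For comparison, 27 regulators, partners and targets of CO and the BBX proteins were counted by the same rule. Shared peaks were present at 14 of them (51.9%), again close to the 47.5% of all genes. They included *FT*, the florigen gene activated by CO, the COP1 partners *SPA1* and *SPA2*, the CO repressors *CDF2*, *CDF3* and *CDF5*, the light-dependent *FKF1* and *GI*, which remove CDF proteins, and *TPL*, the co-repressor bound through BBX30 and BBX31. The others with a shared peak were *NF-YC3*, *TOC1*, *PRR5*, *PRR7* and *PRR9*. A further 5, *TSF*, *SOC1*, *SPA4*, *NF-YB3* and *NF-YC9*, had peaks in one replicate or without overlap. *HY5*, *HYH*, *COP1*, *SPA3*, *CDF1*, *NF-YB2*, *NF-YC4* and *PRR3* had no *SUC2::CO:CIT* peak. *GI* was the only gene of this list with a peak in *SUC2::CO:CIT aba1-6*.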

How the data were processed

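ChIP and input chromatin of both genotypes had been sequenced (2 ChIP libraries per genotype, grouped by their labels). Trimming (fastp), mapping to TAIR10.1 (Bowtie2) and peak calling (macs2, each replicate with its own input and no pooling) had been done by the authors; versions are not given in the sources used here. The deposited fold enrichment is a ratio, summit fragments over local background after adding a pseudocount of 1 to both, and the deposited p-value and q-value are given as −log10. The deposited score was not used, and the deposited summit offset gave summit positions. The lists hold peaks before any IDR filter. The fragment number and background of a peak were solved from its deposited fold enrichment and p-value, which fix a whole number and a Poisson rate. This also sets the depth, since lists carry no totals, and the precision of a peak is that of its fragments. Fold enrichment is not on one scale between libraries of different depth.

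The software was Python 3.11.15 (scipy 1.17.1, pandas 2.3.3, numpy 2.4.6, and matplotlib 3.10.9 for figures). Peaks overlapping by at least 1 bp were counted against RefSeq gene models of TAIR10.1, the build of the files. Libraries were compared by exact permutation of the 4 libraries. The IDR came from an own implementation of the copula mixture model. Recovery, overlap and IDR steps were tested on simulated data. All 32 members are named, each with its strongest shared peak (highest mean −log10 q), and the sequence of that peak is printed for the 6 members with the highest values, except *BBX29*, whose summit lies in an untranslated region. The members, gene lists and tests were chosen with earlier results of these data known. Windows, overlap, thresholds on −log10 q, the IDR, the pseudocount, the search distance, single replicates and the pairing were varied. Replicates are described as biological, and intervals cover counting error only.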

Additional observations from a re-analysis of the deposited data

How the results depend on the processing

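The 14 members with a shared *SUC2::CO:CIT* peak became 5 with the gene alone, 3 at −log10 q of at least 10 (beside 16.7% of all genes) and 7 at a global IDR of at most 0.1 (8994 of 16315 regions retained). Under the other windows and overlap rules, and at −log10 q of at least 5, the number was 10 to 18, the highest with the 4000 bp window added after the data had been seen. Counted in a single replicate it was 18 or 19. The difference between genotypes kept its direction throughout, at 5 to 18 members and 6 to 26 peaks. Leaving out 1 library gave 17 to 18 members and 25 to 26 peaks, every p being the smallest its design allows. In the replicate block, which pairs libraries of the same number, the differences were 17.5 members and 25.5 peaks (p = 0.5 in an exact permutation test, the smallest that 2 pairs allow). The numbers were not shown to mark a shared batch, and 2 pairs are too few to check it. The median fold enrichment of the shared pairs, 3.08 as the mean of both replicates, was 3.17 at −log10 q of at least 5 and 3.27 without the pseudocount, which lowers every fold by construction, and 3.04 to 3.12 in a single replicate. The 5 shared peaks with TGTG or CACA became 14 when 100 bp on either side were searched, a longer stretch, 6 at replicate 2 summits and 5 within 25 bp. Depth limits *SUC2::CO:CIT aba1-6*, above all replicate 2, and the lists hold no value where no peak was called.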
